A study of Mus musculus with 23 samples.

Results

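Open chromatin was described at 10 imprinted loci, those of Gnas, Peg3, Mest, Plagl1, Snrpn, Igf2r, Kcnq1, Dlk1, Grb10 and Peg10, in mesenchymal cells of the maxillary prominence of mouse embryos, from which the upper jaw and palatal shelves form. ATAC-seq, which marks open chromatin by where the Tn5 transposase cuts, had been run on wild-type C57BL/6 embryos at embryonic day 10.5 (E10.5), E11.5 and E12.5, on mesenchymal cells left after Dispase treatment and removal of the ectoderm. All groups share this strain and genotype and differ in age. Each stage had 3 biological samples, each with 1 peak list, and how many embryos made up a sample is unknown, so the error measures only the spread between these samples. The peaks of the 9 lists were merged into 118102 regions where they overlapped by at least 1 bp. A region belonged to a locus when its strongest summit lay inside the gene or within 100 kb of it and that gene was the nearest protein-coding gene. This held for 131 regions, with 32 at Kcnq1, 25 at Gnas, 23 at Igf2r, 14 at Grb10, 11 at Dlk1, 10 at Plagl1, 9 at Peg10, 3 at Mest, 2 at Peg3 and 2 at Snrpn. The farthest member lay 80918 bp from Dlk1, and 3 further regions with Dlk1 as nearest gene, 119290 to 130851 bp away, fell outside the limit. Gnas was chosen by a gained region, one present in every E12.5 list and in no E10.5 list, so its change between these stages is a description and has no test.

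An imprinted gene is expressed mainly from the copy inherited from one parent. The choice is set by control regions whose DNA is methylated on one parental copy only, many of them CpG-rich promoters, and a control region can act on several genes of a cluster, often through a long non-coding RNA that starts there. On the methylated copy of such a promoter chromatin is usually closed, and factors such as the zinc finger protein ZFP57, which binds a methylated TGCCGC hexamer, keep the methylation after fertilisation. ATAC-seq of ordinary wild-type embryos reads both copies together, and a peak list does not say from which copy a fragment came.

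Of the 131 regions 9 (6.87%) overlapped a RefSeq promoter window, the 250 bases before to 50 bases after a listed start, against 9.45% of 114334 regions on chromosomes with such entries. They lay at Gnas (2 regions), Mest (2), Grb10, Igf2r, Plagl1, Airn and Kcnq1ot1. Starts and sequences are those of RefSeq on GRCm38.p6, in which 8 of the 10 listed genes had an entry, all but Kcnq1 and Peg10. The 250 bases before 5 of these starts are printed, those whose window was overlapped by peaks of a member region in at least 3 lists. In the Gnas exon 1 and Igf2r sequences capitals mark each CpG. In the Kcnq1ot1 sequence they mark CCAAT or its reverse complement ATTGG, and in the Mest and Plagl1 sequences the hexamer TGCCGC or its reverse complement GCGGCA.
Gnas exon 1, chr2:174329756-174330005, plus strand: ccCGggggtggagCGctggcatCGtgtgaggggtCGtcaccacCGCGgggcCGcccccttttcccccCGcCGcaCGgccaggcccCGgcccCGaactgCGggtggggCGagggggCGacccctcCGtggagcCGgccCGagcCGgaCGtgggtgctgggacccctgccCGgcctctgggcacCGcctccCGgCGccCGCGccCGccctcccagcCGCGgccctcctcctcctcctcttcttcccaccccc
Igf2r, chr17:12769707-12769956, minus strand: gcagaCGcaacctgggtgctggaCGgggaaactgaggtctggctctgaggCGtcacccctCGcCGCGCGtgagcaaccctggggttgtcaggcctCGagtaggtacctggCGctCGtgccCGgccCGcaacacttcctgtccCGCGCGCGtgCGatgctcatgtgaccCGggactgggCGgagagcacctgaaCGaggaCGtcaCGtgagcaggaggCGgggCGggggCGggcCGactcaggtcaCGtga
Kcnq1ot1, chr7:143296548-143296797, minus strand: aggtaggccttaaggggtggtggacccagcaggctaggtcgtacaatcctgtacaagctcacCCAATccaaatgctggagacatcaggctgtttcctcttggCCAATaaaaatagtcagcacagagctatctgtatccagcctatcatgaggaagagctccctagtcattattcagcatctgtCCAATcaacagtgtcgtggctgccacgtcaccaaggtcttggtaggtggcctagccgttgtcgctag
Plagl1, chr10:13090582-13090831, plus strand: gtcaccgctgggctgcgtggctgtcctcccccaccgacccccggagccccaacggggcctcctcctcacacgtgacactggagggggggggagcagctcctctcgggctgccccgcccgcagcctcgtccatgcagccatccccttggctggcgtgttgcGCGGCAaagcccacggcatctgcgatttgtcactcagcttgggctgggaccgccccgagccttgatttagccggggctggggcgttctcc
Mest, chr6:30737803-30738052, plus strand: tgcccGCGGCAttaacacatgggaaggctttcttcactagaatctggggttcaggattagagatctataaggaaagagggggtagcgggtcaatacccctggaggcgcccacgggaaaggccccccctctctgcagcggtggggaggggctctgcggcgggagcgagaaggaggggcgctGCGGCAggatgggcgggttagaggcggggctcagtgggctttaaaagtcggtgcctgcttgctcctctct
The Gnas exon 1 window held 29 CpGs and the Igf2r window 27. Among all 32851 windows of this length the median was 6, and 6.78% of windows held 29 or more and 8.56% held 27 or more. The Plagl1 window held 19 CpGs, the Mest window 14 and the Kcnq1ot1 window 5. The hexamer, searched on both strands, stood at 2 places in the Mest window and 1 in the Plagl1 window, and at none in the Gnas exon 1, Igf2r and Kcnq1ot1 windows, against 8.68% of all windows with at least 1. CCAAT, also searched on both strands and picked after the Kcnq1ot1 sequence had been read, stood there 3 times, which 2.67% of all windows reach. The same motif was absent from the Gnas exon 1, Igf2r, Plagl1 and Mest windows. The hexamer itself holds a CpG, so its matches are also counted among the CpGs. These matches describe the letters of the windows only.

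Gnas encodes the stimulatory G protein alpha subunit, which couples hormone receptors to adenylyl cyclase. The locus has several alternative first exons with different parental expression, among them Nesp (mainly maternal copy), exon 1A (mainly paternal copy) and exon 1, the start of the G protein transcript, which in most tissues uses both copies. Open chromatin was called around exon 1 at every stage. The region chr2:174328964-174330453 (1490 bp), which spans the exon 1 start at 174330006, was called by all 9 lists. The fold enrichment over background of its strongest peak, the authors' own value at the summit, was 2.43, 3.19 and 2.61 in the E10.5 lists. It was 4.60, 5.42 and 4.08 in the E11.5 lists and 4.95, 3.18 and 3.81 in the E12.5 lists. Folds are relative to each list's own background and were not compared between lists. The median fold over all peaks of a list also differed, lying between 2.56 and 3.13 in E10.5 lists, between 3.13 and 5.06 in E11.5 lists and between 2.47 and 3.50 in E12.5 lists.

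Within this region the place of the strongest peak varied between lists. Its summit was 43, 461 and 245 bp before the exon 1 start in the E10.5 lists, 272, 273 and 254 bp before it in the E11.5 lists, and 534, 523 and 782 bp before it in the E12.5 lists. Weaker peaks in the region had summits elsewhere, 455 bp before the start in E10.5 replicate 3, 860 bp before it in E11.5 replicate 3 and 354 bp after it in E12.5 replicate 2. Peaks overlapped the printed promoter window in 7 lists, and those of E12.5 replicates 1 and 3 ended upstream of it, 453 and 377 bp before the start. These positions are a description.

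The gained region of Gnas lay directly downstream, at chr2:174330454-174330884 (431 bp), inside the gene. No E10.5 list called it. At E11.5 replicates 2 and 3 called it with folds of 4.73 and 3.66, and replicate 1 did not. At E12.5 all 3 lists called it, with folds of 4.02, 3.02 and 3.38. The 5 summits fell 693 to 712 bp after the exon 1 start, within 19 bp of each other. Within the E12.5 lists these peaks ranked high, above 91.5%, 97.6% and 98.2% of the list's peaks by −log10 q, and within the E11.5 lists above 69.0% and 83.0%. E11.5 replicate 1 was the shortest list, with 5682 peaks against 14886 to 50361 in the others.

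This region began at the base after the end of its neighbour, and that end was set by 1 peak. In E10.5 replicate 2 a single peak of 1490 bp ran from 1042 bp before to 447 bp after the exon 1 start, with its summit 461 bp before it. The E11.5 replicate 2 peak of the gained region started at 448 bp after it. In the other E10.5 lists no peak reached past the start, the last ending 40 bp before it in replicate 1 and 47 bp before it in replicate 3. Where touching peaks were merged too, an alternative added after this was seen, 1 region of 1921 bp was called by all 9 lists and no member was gained. Of the 565 regions gained genome-wide between E10.5 and E12.5 only this one touched a region called at E10.5, and 12 (2.12%) lay within 100 bp of one. The median distance of the 565 to such a region was 12091 bp. The gain is thus a peak summit called downstream of a promoter that was already called at E10.5, as the map of peaks around Gnas exon 1 shows.

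**Figure D1:**
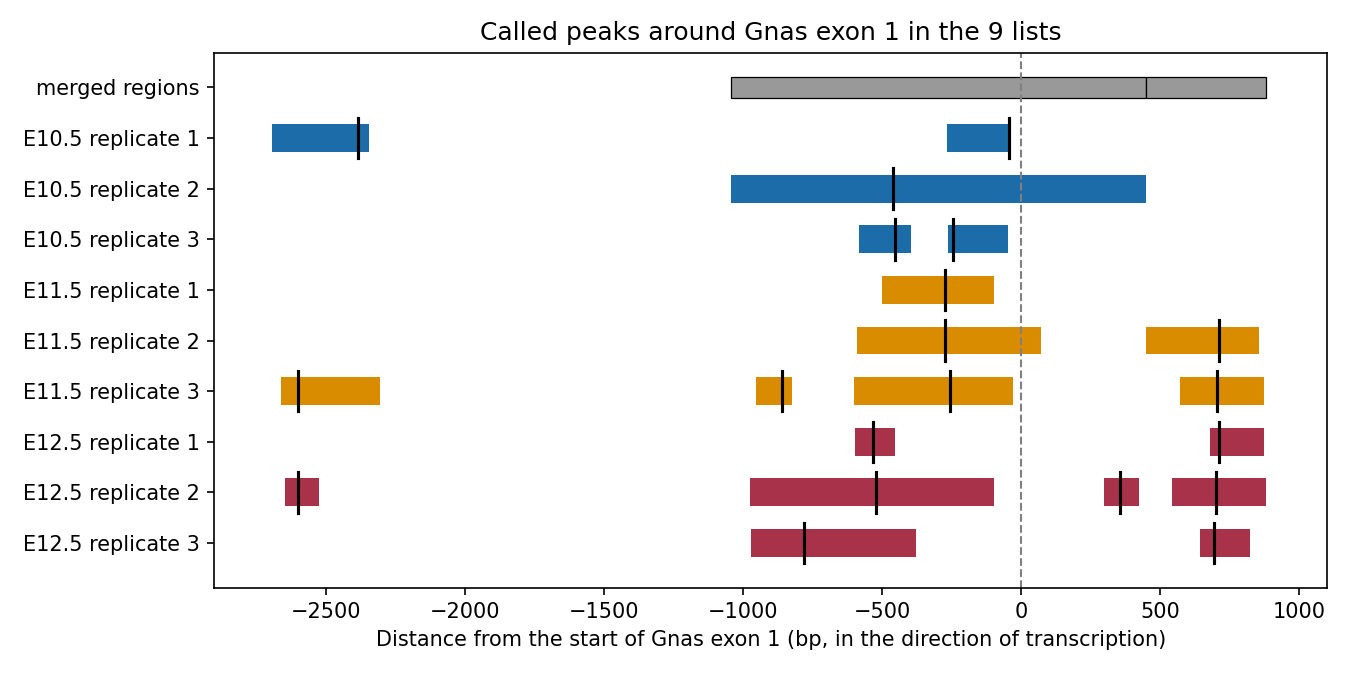
Peaks (bars) and their summits (black ticks) in each of the 9 lists, by distance in bp from the start of Gnas exon 1 (dashed line), with the 2 merged regions in grey on top. All 9 lists have a peak upstream of or across the start, and the 5 peaks with summits 693 to 712 bp after the start belong to E11.5 and E12.5 lists.

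The other starts of the Gnas locus looked at here were called seldom. The region chr2:174327314-174327700 next to the exon 1A start at 174327749, where the locus has one of its control regions, was called by 1 list of each stage, E10.5 replicate 1 (fold 2.69), E11.5 replicate 3 (3.73) and E12.5 replicate 2 (2.16). The region chr2:174295270-174295846 overlaps position 174295436, where the annotated RNA Gnasas1 (Nespas), antisense to Gnas, begins, near the main control region of the cluster. It was called by E11.5 replicates 2 and 3 only, with a fold of up to 7.31, the highest at Gnas. No peak overlapped the window of the Nesp start at 174284320. Both regions are named beyond the rule for named regions and were chosen after their values were seen.

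Away from these starts the Gnas locus held mostly single calls. Of its 25 regions 18 were called by 1 list. Inside the gene, chr2:174299296-174300471 was called by 3 lists (1 of E10.5 and 2 of E12.5). So was chr2:174339619-174340000 (1 of E11.5 and 2 of E12.5). The 8 regions before the gene, 9385 to 75241 bp away, were each called by at least 1 E12.5 list, 1 of them by an E10.5 list too and none by an E11.5 list. The 4 regions beyond its end, 8722 to 32525 bp away, were called by E12.5 lists only. Among the 13 regions inside the gene, E10.5 lists called 6, E11.5 lists 6 and E12.5 lists 8. E12.5 replicate 2, the longest list, made 7 of the 12 calls that E12.5 lists made outside the gene, replicate 1 made 2 and replicate 3 made 3. Over all regions outside a gene and within 100 kb of one, 62.0% were called by an E12.5 list, 41.5% by an E11.5 list and 29.6% by an E10.5 list. For members outside the other 9 genes the shares were 51.4%, 37.1% and 37.1% of 35 regions.

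Among the loci whose protein-coding genes are expressed from the paternal copy, Peg3 was the most regularly called. Peg3 encodes a zinc finger protein, and the control region of its domain takes in the facing promoters of Peg3 and Usp29 and the first part of Peg3. The region chr7:6727656-6729827 (2172 bp), the widest of the 131, lay in that first part of the gene, with its strongest summit 1677 bp after the Peg3 start, and all 9 lists called it. Its folds were 2.77, 3.32 and 2.76 in the E10.5 lists. The E11.5 lists gave 5.84, 4.76 and 5.48, and those of E12.5 gave 3.86, 2.46 and 2.53. Just upstream, the region over the shared promoters, chr7:6729852-6730632, has Usp29 as nearest gene and so is not among the 131. It was called by 2 lists of each stage.

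Mest, which encodes a membrane protein of the hydrolase fold family, has its control region at a promoter inside the locus. The region over that start, chr6:30737914-30738342, was called by E10.5 replicate 2 (fold 2.55) and by E11.5 replicates 2 and 3 (4.59 and 4.03), with summits within 19 bp of each other, and by no E12.5 list. A second region, chr6:30732911-30733287, had its summit 506 bp before the upstream Mest start and was called by 1 E10.5 list and 2 E12.5 lists. The 2 regions were thus each called by 3 lists, but peaks overlapped the promoter window of the upstream start in 1 list and that of the inner start in 3.

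Plagl1 encodes a zinc finger transcription factor that restrains growth, and its promoter is the control region of the locus. The region over it, chr10:13090680-13091057, was called by E10.5 replicates 2 and 3 (folds 2.53 and 2.83), by E11.5 replicate 3 (3.20) and by E12.5 replicate 3 (3.51). The other 9 Plagl1 regions were called by 1 list each.

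Snrpn encodes a small nuclear ribonucleoprotein of the splicing machinery, made mainly in brain. Both Snrpn regions were called by E11.5 lists only. The better supported one, chr7:60244315-60244478, was called by replicates 2 and 3 (folds 4.59 and 3.68) and lay far inside the annotated gene, 104130 bp from the nearest listed Snrpn start. Near the start at 60005199, which Snrpn shares with Snurf and where the control region of the domain lies, 2 small regions assigned to Snurf were called by 2 lists and 1 list.

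Peg10 derives from a retrotransposon and is needed in the placenta. Its region with most calls, chr6:4762362-4762521, lay 1966 bp beyond the gene and was called by E10.5 replicate 3 (fold 3.36), E11.5 replicate 3 (6.32) and E12.5 replicates 1 and 2 (5.19 and 2.98), with all summits within 6 bp. The promoter that Peg10 shares with Sgce, the control region of that pair, was called more often. The region there, chr6:4746726-4747148, has Sgce as nearest gene and so is not a member. It was called by 7 lists, namely all but 2 of the E11.5 lists, and its summit lay 392 bp before Peg10.

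Dlk1 encodes a membrane protein of the Notch ligand family. No list had a peak within 1 kb of its start. Its 11 members lay mostly outside the gene (9 of 11). None was called by more than 2 lists, and 3 were called by 2. Of these chr12:109375169-109375485, 77494 bp before the start, had the highest −log10 q and was called by E12.5 replicates 1 and 2 (folds 3.34 and 2.79). A nearer one, 20925 bp before the start, was called by 2 E12.5 lists as well, and the other by 1 E11.5 and 1 E12.5 list. The control region of this domain lies between Dlk1 and Meg3, a maternally expressed non-coding RNA gene. The regions there, chr12:109526567-109526981 (3 lists) and chr12:109527441-109527911 (2 lists), lay 14065 and 13489 bp before the Meg3 start and have Rtl1 as nearest gene. The regions beside the listed genes given here were chosen after their values were seen.

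Among the genes expressed from the maternal copy, Kcnq1 had the most regular region, and it was not at a Kcnq1 start. Kcnq1 encodes a potassium channel subunit, and within it, on the opposite strand, starts Kcnq1ot1, a paternally expressed long non-coding RNA whose promoter is the control region of the cluster. The region chr7:143296050-143296895, with its summit 33 bp before the Kcnq1ot1 start, was called by 8 lists, all but E12.5 replicate 3. Its folds were 2.90, 2.28 and 2.82 in the E10.5 lists. They were 5.19, 6.47 and 6.33 in the E11.5 lists, and 3.67 and 2.46 in the first and second E12.5 lists. It overlaps the printed window that held CCAAT 3 times. Of the other 31 Kcnq1 regions 27 were called by 1 list and 4 by 2 to 4 lists.

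Igf2r encodes the receptor that clears insulin-like growth factor 2. The region over its promoter, chr17:12769411-12770121, was called by 2 lists of each stage, with folds of 3.16 and 2.62 (E10.5 replicates 1 and 3), 5.18 and 4.41 (E11.5 replicates 2 and 3), and 2.60 and 2.99 (E12.5 replicates 2 and 3). The control region of this cluster is the promoter of Airn, a paternally expressed non-coding RNA that starts inside Igf2r. A region overlapped that window in 1 list only, E11.5 replicate 2, at chr17:12741191-12741390. Further inside Airn, regions with summits 925, 1410 and 1834 bp after its start were called by 1, 2 and 1 E12.5 lists and by no others. At Igf2r peaks thus overlapped the window of the gene's own start in 6 lists and that of Airn in 1. Within 1 kb of the Airn start 2 lists had a peak, 1 of E11.5 and 1 of E12.5. At Kcnq1 the most often called region was the promoter of Kcnq1ot1.

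Grb10 encodes an adaptor that dampens insulin receptor signalling and is expressed from the maternal copy in most tissues and from the paternal copy in neurons. Its region with most calls, chr11:12025704-12026626, lay inside the gene, 2107 bp after the start at 12027971. It was called by all 3 E10.5 lists (folds 3.21, 2.72 and 2.31), by E11.5 replicates 2 and 3 (4.66 and 4.30) and by E12.5 replicate 2 (2.44). The CpG-richest window of the loci, with 40 CpGs before the Grb10 start at 12037420, was overlapped by a peak in 1 list, E11.5 replicate 3.

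**Figure D2:**
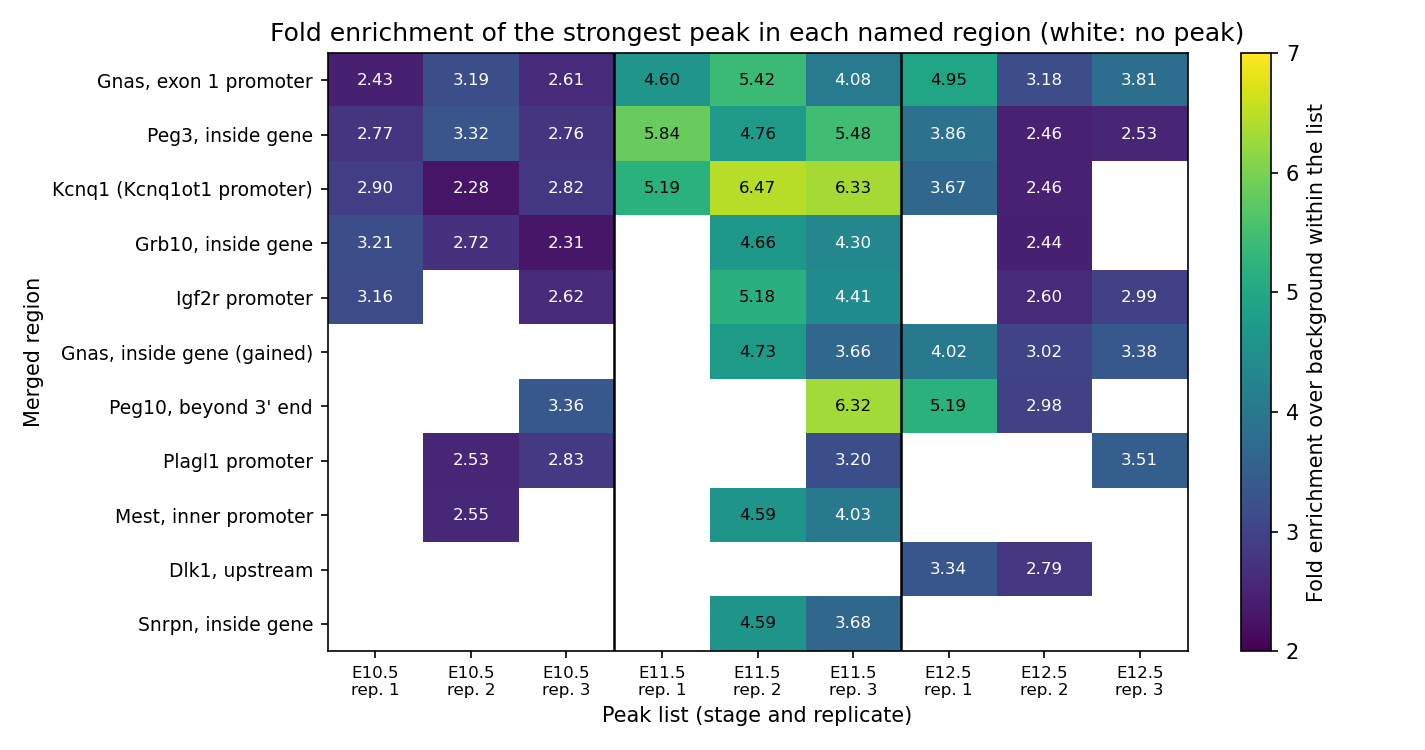
Fold enrichment over the list's own background of the strongest peak in 11 named regions (rows) in each of the 9 lists (columns), with white where the list has no peak. The Gnas exon 1 promoter and the Peg3 region are filled in all 9 lists, the Kcnq1ot1 promoter in 8, and the gained Gnas region in 5.

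Most members were called by few lists, like regions elsewhere. Of the 131 regions 96 (73.3%) were called by 1 list, against 68.8% of all regions, and 6 (4.58%) by 5 or more, against 7.13%. All 9 lists called 2 members (1.53%), against 1.02% of all regions. The members had a median width of 197 bp against 195 bp, 64.1% lay inside a gene against 54.1%, and 6.11% lay within 1 kb of a gene boundary against 14.6%. Of the 96 single calls 38 came from E12.5 replicate 2, which made 31.9% of single calls over all regions, and 0 from E11.5 replicate 1. At least 2 lists of a stage called 8 members for E10.5, 13 for E11.5 and 17 for E12.5, which is 6.11%, 9.92% and 12.98% of the members, against 8.20%, 12.2% and 13.3% of all regions. All 3 lists of a stage called 4 members for E10.5 (in Gnas, Grb10, Kcnq1 and Peg3), 3 for E11.5 (in Gnas, Kcnq1 and Peg3) and 3 for E12.5 (2 in Gnas and 1 in Peg3). Of the 2 in Gnas 1 is the gained region, called by all 3 E12.5 lists by the choice of the locus. The same share over all regions was not counted, so nothing is read from these counts.

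**Figure D3:**
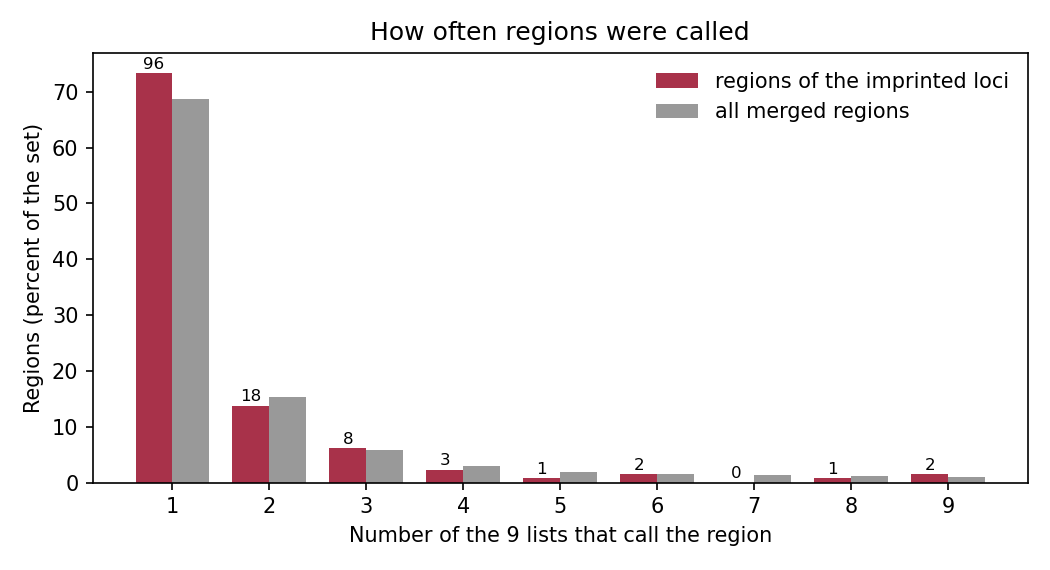
Share of regions (percent) by the number of lists that call them, for the 131 regions of the imprinted loci (red, with counts) and for all 118102 regions (grey). Both sets are dominated by regions of 1 list.

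Between E10.5 and E12.5 the members held 1 gained region, that of Gnas, which is 0.763% of them. Over all regions 0.478% were gained and 0.307% lost, and 0 members were lost. The rule for choosing Gnas used this gain, so nothing is read from it. A further 7 members were called by 2 E12.5 lists and no E10.5 list, which is 5.34% of them, against 5.57% of all regions. They lay at Igf2r (3), Dlk1 (2), Gnas (1) and Kcnq1 (1). Between E10.5 and E11.5 the members held 0 gained and 0 lost regions, against 0.643% gained and 0.149% lost over all regions. Between E11.5 and E12.5 they again held 0 of each, against 0.561% and 1.23%. Counts of 0 and 1 among 131 regions are near these background shares. Without E12.5 replicate 3, 6 members were gained between E10.5 and E12.5 (4.96%, against 4.53% of all regions), and 2 without replicate 1 (1.65%, against 2.19%) or replicate 2 (2.15%, against 0.988%), Gnas among them each time. Without E10.5 replicate 2, 1 member (0.794%, at Kcnq1) was lost to E11.5 and to E12.5, against 0.420% and 0.554% of all regions. Without E10.5 replicate 3 it was 1 member too (0.775%, at Peg10), against 0.658% and 0.847%, and without E12.5 replicate 2, 1 member (1.08%, at Grb10) was lost from E10.5 to E12.5, against 0.933%. Between E11.5 and E12.5, 4 members were gained without E12.5 replicate 3 (3.31%, against 4.31%), and 2 without replicate 1 (1.65%, against 2.53%) or replicate 2 (2.15%, against 1.09%). The E11.5 counts hung on replicate 1, the shortest list. Without it 6 members were gained between E10.5 and E11.5 (4.58%, against 4.61% of all regions), 3 at Grb10, 2 at Gnas and 1 at Snrpn. In the same way 7 were lost between E11.5 and E12.5 (5.34%, against 5.77%), 3 of them at Grb10.

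Calls of whole loci followed the length of the lists. The E10.5 lists called 16, 19 and 13 members, the E11.5 lists 3, 21 and 36, and the E12.5 lists 23, 60 and 20, with means of 16 ± 3, 20 ± 16.5 and 34.3 ± 22.3 (SD, n = 3 each). As a share of each list's regions this was 0.100% ± 0.00594, 0.0782% ± 0.0209 and 0.108% ± 0.0162. Each list's calls at a gene were therefore set against the number expected from how many regions the list calls in all, over regions called by 1 to 8 lists. The difference, divided by the root of its expected variance, is called the residual here.

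At Gnas the residuals were -0.25, -0.67 and -0.06 in the E10.5 lists, -0.79, -0.71 and -1.46 in the E11.5 lists, and 0.33, 1.65 and 1.34 in the E12.5 lists. The E12.5 values were the highest, but the contrast with E10.5 is the one by which the locus was chosen. The residuals also include the gained region, which every E12.5 list called by that choice. Nothing is therefore read from the difference to E10.5 or to E11.5. The 5 genes whose residuals over the 9 lists were most like those of Gnas were Pxk (Pearson r 0.957), Ube2e2 (0.954), Ppp1r26 (0.951), Slc5a3 (0.948) and Wnt7b (0.934). They share the 9 lists and are given as a description.

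Of the other 9 genes 6 had the 5 or more regions the test needed, and 0 of them passed limma's test with Benjamini-Hochberg adjustment over all 7340 genes in any of the 3 comparisons of stages. Of all tested genes, 0.0136% passed between E10.5 and E12.5, 0.191% between E10.5 and E11.5 and 3.23% between E11.5 and E12.5, and 634, 722 and 1264 genes had an unadjusted p under 0.05. Between E10.5 and E12.5 the unadjusted p was below that for Peg10, Plagl1 and Kcnq1, 3 of the 6. Between E10.5 and E11.5 it was so for Peg10 and Plagl1, and between E11.5 and E12.5 for Kcnq1 and Grb10. In 1 alternative each, given below, the sign between E10.5 and E12.5 reversed for Peg10 and for Kcnq1. The Peg10 residuals were 0.80, 1.31 and 2.04 at E10.5 and -1.01, -0.97 and -0.49 at E12.5, a difference of -2.20 ± 0.829 (SE, limma adjusted p = 0.432). The Peg10 values were lower at E12.5. For Plagl1 the residuals were 1.43, 2.09 and 0.35 at E10.5 and -1.45, -0.34 and -0.05 at E12.5, and the difference was -1.90 ± 0.838 (limma adjusted p = 0.530). For Kcnq1 they were -0.81, 0.04 and -0.64 at E10.5 and 0.79, 2.11 and 0.71 at E12.5, and the difference was 1.67 ± 0.834 (limma adjusted p = 0.571).

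Igf2r and Dlk1 had differences of 1.28 ± 0.832 and 1.33 ± 0.850 between E10.5 and E12.5, and Grb10 one of -1.39 ± 0.846 (limma adjusted p = 0.661, 0.660 and 0.651). At Dlk1 the E12.5 lists spread widely, with residuals of 1.98, 1.31 and -1.096. Between E11.5 and E12.5 the smallest adjusted p was that of Kcnq1, with a difference of 2.20 ± 0.834 (limma adjusted p = 0.135), followed by Grb10 with -1.76 ± 0.846 (adjusted p = 0.261). Grb10 was past the threshold in that comparison only when single-list regions were left out, with a difference of -2.50 (limma adjusted p = 0.0451). Between E10.5 and E11.5 the smallest adjusted p was that of Plagl1, with -1.81 ± 0.838 (limma adjusted p = 0.468). Peg3, Mest and Snrpn had too few regions for the test. A p over the threshold does not show that the stages were alike.

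**Figure D4:**
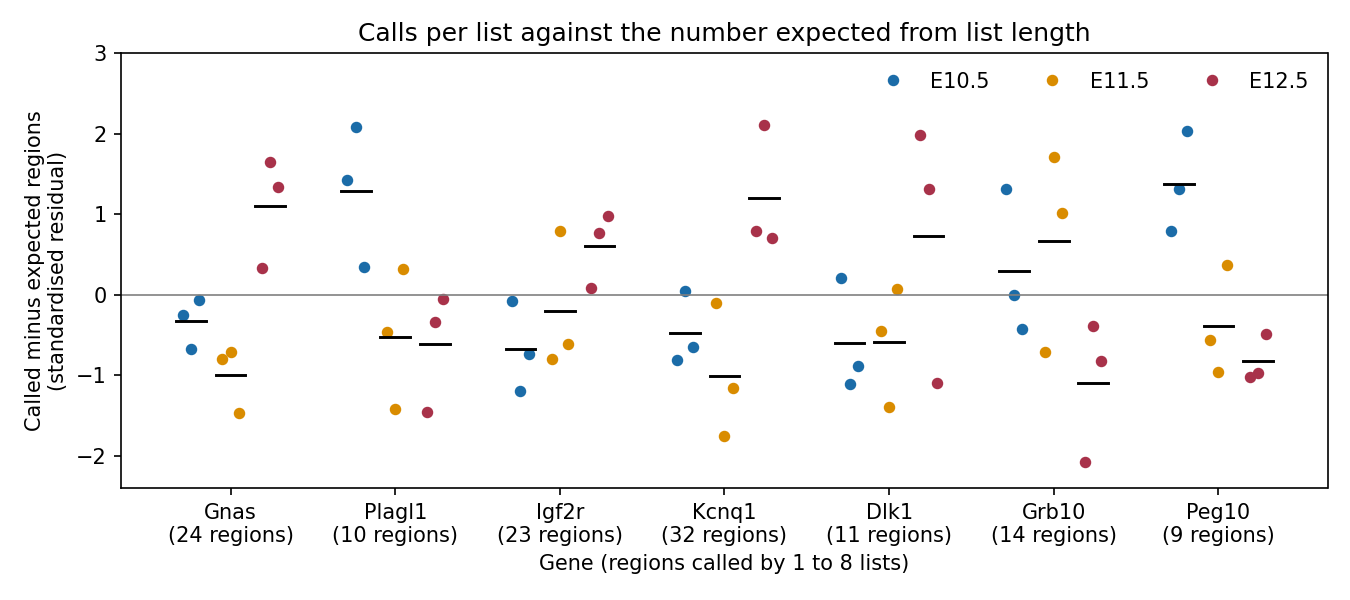
Called minus expected regions, as standardised residuals, for the 7 loci that had enough regions, with 1 point per list and a black bar for the mean of the 3 lists of a stage. The mean was highest at E12.5 for Gnas, Kcnq1, Igf2r and Dlk1, at E10.5 for Peg10 and Plagl1, and at E11.5 for Grb10. Gnas was chosen by a region gained by E12.5 and was not tested. In 0 of the 6 loci tested did a difference pass the test.

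Start sites were called unevenly across the loci. Counting lists with a peak within 1 kb of any listed start, Gnas had 9, Peg3 7, Igf2r 6, Mest 5, Plagl1 4, Snrpn 2, Grb10 1 and Dlk1 0. Over 17274 protein-coding genes with a listed start the median was 2 lists, 6.89% had such a peak in all 9 lists and 34.7% in none. Among 38 other imprinted genes with a listed start the median was also 2, with Inpp5f and H13 at all 9 lists and 7 genes at 0. Another 12 had no listed start and were scored within 1 kb of either gene end, which gave a median of 1.5 lists, with Nap1l4 at 9. Of the 22 other imprinted genes with enough regions for the gene test, 1 passed, Trappc9 between E11.5 and E12.5 (difference 3.18, limma adjusted p = 0.0173). In that comparison 3.23% of all tested genes passed, so nothing about imprinted genes is read from 1 of 22. Among 12 factors that keep or read imprints and have a listed start the median was 5.5 lists, with Smchd1 at 9. Arid4a and Dppa3, scored at either end, had 9 and 0 lists. Of these factors 4 were in the gene test and 0 passed.

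The tissue label was checked by the same count, at a listed start where there is one and otherwise at either gene end. Of 9 genes of cranial mesenchyme Twist1 had such a peak in 8 lists (start) and Dlx5 in 6 (either end), and 4 were at 0 (Pdgfra, Tfap2a and Tfap2b at the start, Alx4 at either end), with a median of 2 over all 9 genes. The median was 1 for 6 epithelial genes (highest 2), 1 for 5 endothelial genes (Kdr in 7 lists), 0.5 for blood, 2 for neurons and glia and 0.5 for muscle. Many mesenchyme genes were thus called as seldom as those of other cell types. In the gene test between E11.5 and E12.5, 0 of 7 mesenchyme genes passed, against 3.23% of all tested genes. Among endothelial genes 1 of 4 passed, Erg (difference 3.23, limma adjusted p = 0.0189). Of the genes listed under muscle 1 of 2 did, Pax7 (difference 3.15, limma adjusted p = 0.0205). Both had higher residuals at E12.5 than at E11.5. Their counts at the start did not rise. Erg had such a peak in 2 E10.5 lists, 1 E11.5 list and 0 E12.5 lists, and Pax7 in 0 lists. The part of other cells in the values above was not tested.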

How the data were processed

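ATAC-seq of 9 biological samples (23 library runs, 1 to 4 per sample) is given as 1 narrowPeak list per sample. Per the submitters' processing notes the tools were MACS2, Bowtie2 and deepTools 3.3.1 on build mm10, and per the labels blacklisted regions were removed. For read filters, the transposase offset and the calling threshold the sources used here give nothing. Each deposited peak carries the authors' fold enrichment over background (a ratio) and −log10 p and −log10 q. They serve only to describe, filter and rank within 1 list. Read depth is not known from the lists, so no counting interval is given.

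Peaks on the 19 autosomes and X were merged across lists (1 peak lay elsewhere). Regions went to the nearest of 21631 protein-coding RefSeq genes (GRCm38.p6) by distance to the gene body, without exons or introns. Expected calls followed a Rasch model, additive on the logit scale for lists and regions, conditional on how many lists called the region. Residuals per gene were tested with limma 3.58.1 (R 4.3.3), stage as factor over 9 lists, Benjamini-Hochberg threshold 0.05. Its prior degrees of freedom were 100.09, so a gene's own spread weighs little. Regions named with positions are those called by 5 or more lists, gained, or else the locus's most often called one (ties by −log10 q). The other positions printed, at Gnas, Mest, Airn and beside the loci, were chosen after their values were seen. Genes like Gnas are the 5 with highest r. The members, lists and rules were chosen with earlier results of these data known. Of 51 other imprinted genes 50 were found by name. Alternatives were a −log10 q of at least 5, equal-length lists of 5682 peaks, 50% overlap, all annotated genes, regions of 2 to 8 lists, genes with 3 or more regions, a replicate block, wider merging and leaving out each list. Software was Python 3.11.15 with pandas 2.3.3, NumPy 2.4.6, Matplotlib 3.10.9 and SciPy 1.17.1.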

Additional observations from a re-analysis of the deposited data

How the results depend on the processing

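The Gnas gain held with a −log10 q of at least 5, equal-length lists, 50% overlap, all annotated genes and without any 1 list. Gnas was chosen by this gain. Leaving out 1 list could not undo it, and 50% overlap or all annotated genes could not add an E10.5 call. Nothing is therefore read from its holding in these settings. The gain was lost (0 gained members) when touching peaks or peaks up to 100 bp apart were merged, both added after the data were seen. In both the region joins its 9-list neighbour. With a −log10 q of at least 5 and in equal-length lists, the regions named by the rule were called by fewer lists in most cases: the Gnas exon 1 region by 6 and 8 (of 9), the gained Gnas region by 5 and 3 (of 5, with no E11.5 list left in the latter), Peg3 by 5 and 6 (of 9), Kcnq1 by 3 and 3 (of 8), Igf2r by 2 and 3 (of 6), Grb10 by 2 and 0 (of 6), Plagl1 by 0 and 2 (of 4), Mest by 2 and 0 (of 3), Dlk1 and Snrpn by 0 and 0 (of 2), and Peg10 by 4 and 4 (of 4). The other overlap rule left these counts as they were. Gained members between E11.5 and E12.5 came to 1 in equal-length lists, and lost ones to 1 with a −log10 q of at least 5. Without 1 list, gained members ranged from 0 to 6 (E11.5 against E10.5), 1 to 6 (E12.5 against E10.5) and 0 to 4 (E12.5 against E11.5), and lost members from 0 to 1, 0 to 1 and 0 to 7. The counts of 6 and 4 for E12.5 arose without E12.5 replicate 3.

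Genes past limma's test, of all tested, numbered 14 (E11.5 against E10.5), 1 (E12.5 against E10.5) and 237 (E12.5 against E11.5). With a −log10 q of at least 5 they were 0, 9 and 82, in equal-length lists 0, 3 and 52, and with all annotated genes 1, 0 and 122. With 50% overlap 4 passed for E12.5 against E10.5. With regions of 2 to 8 lists 2 and 102 passed in the comparisons with E12.5, Grb10 being the 1 listed gene, and with genes of 3 or more regions 373 for E12.5 against E11.5. Without 1 list the ranges were 0 to 52, 0 to 8 and 36 to 239, and 0 listed genes passed. The sign of E12.5 minus E10.5 reversed for Kcnq1 with regions of 2 to 8 lists (-0.59) and for Peg10 with a −log10 q of at least 5 (0.27). The cause was not tested, though fewer genes and regions enter these fits. Same-numbered samples did not deviate together (9 correlations of -0.0962 to 0.0155), and the paired fit with the sample number as replicate block gave 20, 1 and 248 genes, none of them a listed one tested.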
